A study of Mus musculus with 8 samples.

Results

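Chaperone and heat shock genes were compared between regulatory T cells (Treg) of bone marrow and spleen. The members were the genes of the HSP70, HSP110, HSP90, small heat shock, HSP60 and HSP10 families and of the DNAJA, DNAJB and DNAJC families. With them were the TRiC/CCT subunits, BAG1 to BAG6, HSF1 and HSF2, and the HSP90 cochaperones CHORDC1, STIP1 and AHSA1. Genes were matched by symbol alone, but the families were chosen with earlier results of these data known. The symbols matched 98 of the 38215 genes listed, and 97 symbols were distinct, since Hspa14 has 2 overlapping entries on chromosome 2. Of the 98, 82 passed the filter on low counts and were tested. Of the other 16, 7 had no count in any library, and none exceeded 1.39 CPM in a library (CPM are counts scaled to the same total in every library; FPKM are also scaled by transcript length).

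Molecular chaperones are proteins that help other proteins to fold, assemble or be cleared. HSP70 proteins bind short stretches of unfolded protein, J-domain proteins (the DNAJ families) deliver these and start the ATP cycle, and nucleotide exchange factors such as HSP110 and BAG proteins release them. HSP90 then finishes the folding of kinases and receptors, and the chaperonin TRiC/CCT folds actin, tubulin and other proteins inside a ring. The endoplasmic reticulum (ER) and the mitochondria hold sets of their own, and heat shock factors raise many of these genes when unfolded protein builds up.

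RNA was sequenced from FoxP3+ Treg sorted by their GFP reporter. They came from bone marrow (BM-Treg) or spleen (SP-Treg) of untreated B6.FoxP3-GFP mice, which are C57Bl/6 animals that were 12 weeks old. Each tissue had 4 libraries. By the labels, batch 1 holds the first 3 BM-Treg replicates, all labelled female, and batch 3 holds the fourth together with every SP-Treg library, all labelled male, so that batch, labelled sex and tissue cannot be told apart outside batch 3. The methods call the libraries biological replicates, but the labels do not say whether each came from its own animal, and if not, p-values measure only the spread between these libraries. The comparison asks how Treg of the bone marrow differ from those of the spleen.

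BM-Treg replicates 1 and 2 did not match their label of female alone. Xist, the RNA that silences an X chromosome in female cells, was at 1230, 2267, 2271 and 2.59 CPM in the BM-Treg libraries and at 1.51 to 2.63 CPM in those of SP-Treg. Kdm5d, on the Y chromosome, was at 46.9, 20.9, 0.613 and 85.3 CPM in the BM-Treg libraries and at 80.4 to 90.8 CPM in those of SP-Treg. Replicates 1 and 2 thus held both RNAs, while replicate 3 held nearly only Xist, and the cause was not tested. Counts of called members are therefore also given without replicates 1 and 2.

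Library totals ranged from 12427136 to 21921252 expected counts. The 7 Treg and T cell markers (Foxp3, Il2ra, Ctla4, Cd3e, Cd3g, Cd4 and Ikzf2) summed to between 7335 and 8884 CPM in every library, and none was called different. Of the 6 plasma cell marker symbols, 4 matched a gene. These 4 summed to between 289 and 416 CPM in BM-Treg and between 293 and 431 CPM in SP-Treg, mostly from Prdm1, which Treg express too. Of the others, Sdc1 and Tnfrsf17 did not exceed 0.587 and 0.251 CPM, but Igj, the antibody joining chain, was at 0.215, 24.6, 8.95 and 5.65 CPM in the SP-Treg libraries and at no more than 0.394 CPM in those of BM-Treg. B cell markers summed to 107 CPM in SP-Treg replicate 2 and to at most 23.2 CPM elsewhere. Erythroid markers summed to between 62.3 and 130 CPM in SP-Treg replicates 2 to 4, and to at most 9.66 CPM in the other libraries. Neutrophil markers summed to between 1.31 and 9.89 CPM in BM-Treg and between 0.215 and 16.9 CPM in SP-Treg. Those of monocytes and macrophages summed to between 13.6 and 20.0 CPM and between 14.1 and 35.1 CPM, and those of plasmacytoid dendritic cells to between 83.5 and 93.3 CPM and between 65.5 and 105 CPM. In 3 of these lists 1 gene was called lower in BM-Treg: Vcam1, a macrophage marker, by a log2 fold change of -2.92, Ebf1, a B cell factor, by -2.42, and Pacsin1, of plasmacytoid dendritic cells, by -0.55 (edgeR adjusted p = 0.00222, 0.0332 and 0.0415). The part of these cells in the results was not tested. In bulk RNA, fewer cells that express a gene and less of its RNA per cell cannot be told apart.

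Chaperone transcripts were less abundant in BM-Treg. The summed level of all members was 6921, 7756, 8036 and 9330 CPM in the 4 BM-Treg libraries and 17608, 16469, 11345 and 11690 CPM in the 4 SP-Treg libraries, with no overlap. They took 0.721% to 0.899% of all counts in BM-Treg and 1.05% to 1.9% in SP-Treg. Of the 82 members tested, 23 were called lower in BM-Treg (28%, against 5.02% of all 13397 genes tested) and 3 were called higher (3.66%, against 3.72%), by the quasi-likelihood test of edgeR at a Benjamini-Hochberg adjusted p under 0.05 over all genes. The called members thus came to 26 (31.7%), against 8.75% of all genes. The families were chosen with earlier results of these data known, so these shares are a description. The median log2 fold change (BM-Treg minus SP-Treg throughout) was -0.27 over the members tested and -0.01 over all genes.

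The libraries of both tissues did not overlap in 28 members that were lower in BM-Treg (34.1%, against 8.55% of all genes) and in 5 that were higher (6.10%, against 7.61%). These made 33 of 82 members, against 16.2% of all genes. Lack of overlap fixes the exact two-sided permutation p over the libraries at 0.0286 for each of the 33. This is the smallest value that 4 against 4 libraries allow, and it adds no support beyond the lack of overlap. Of the 26 called members, 24 had no overlap, the exceptions being Dnaja1 and Dnajb11. All 26 kept their direction within batch 3, where a single BM-Treg library stands against 4 SP-Treg libraries, but many differences were smaller there. For the 24 without overlap this direction was set in advance, since each BM-Treg library lies beyond every SP-Treg library. The median log2 fold change of the 26 was -0.77 with all libraries and -0.57 within batch 3. In 9 of them the difference was over 1.5 times larger with all libraries, and in 0 it was over 1.5 times larger within batch 3. Those 9 were Hspa8, Hsp90ab1, Chordc1, Stip1, Dnaja1, Dnajb11, Cct2, Cct3 and Cct5. Called members are picked for their difference with all libraries. Over all 82 members tested, called or not, the median was -0.27 with all libraries and -0.21 within batch 3. The cause of the smaller differences was not tested. Stip1 was at -1.35 with all libraries and at -0.78 within batch 3, Dnaja1 at -1.01 and -0.59, and Cct2 at -0.46 and -0.20.

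With the batch as a term in the model, 2 of the 82 members tested were called, Hspe1 and Tcp1, against 258 of all 13397 genes (1.93%). With that term the members were thus called about as often as all genes. Without BM-Treg replicates 1 and 2, 5 of the 83 members tested were called, against 2.24% of all genes: Hspe1, Tcp1, Hspa9 and Dnajc3 lower in BM-Treg and Dnajb9 higher. All 26 kept their direction in that fit, which has 2 BM-Treg libraries, and the median over the members tested was -0.26. For the 24 without overlap the kept direction largely follows from the lack of overlap.

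**Figure D1:**
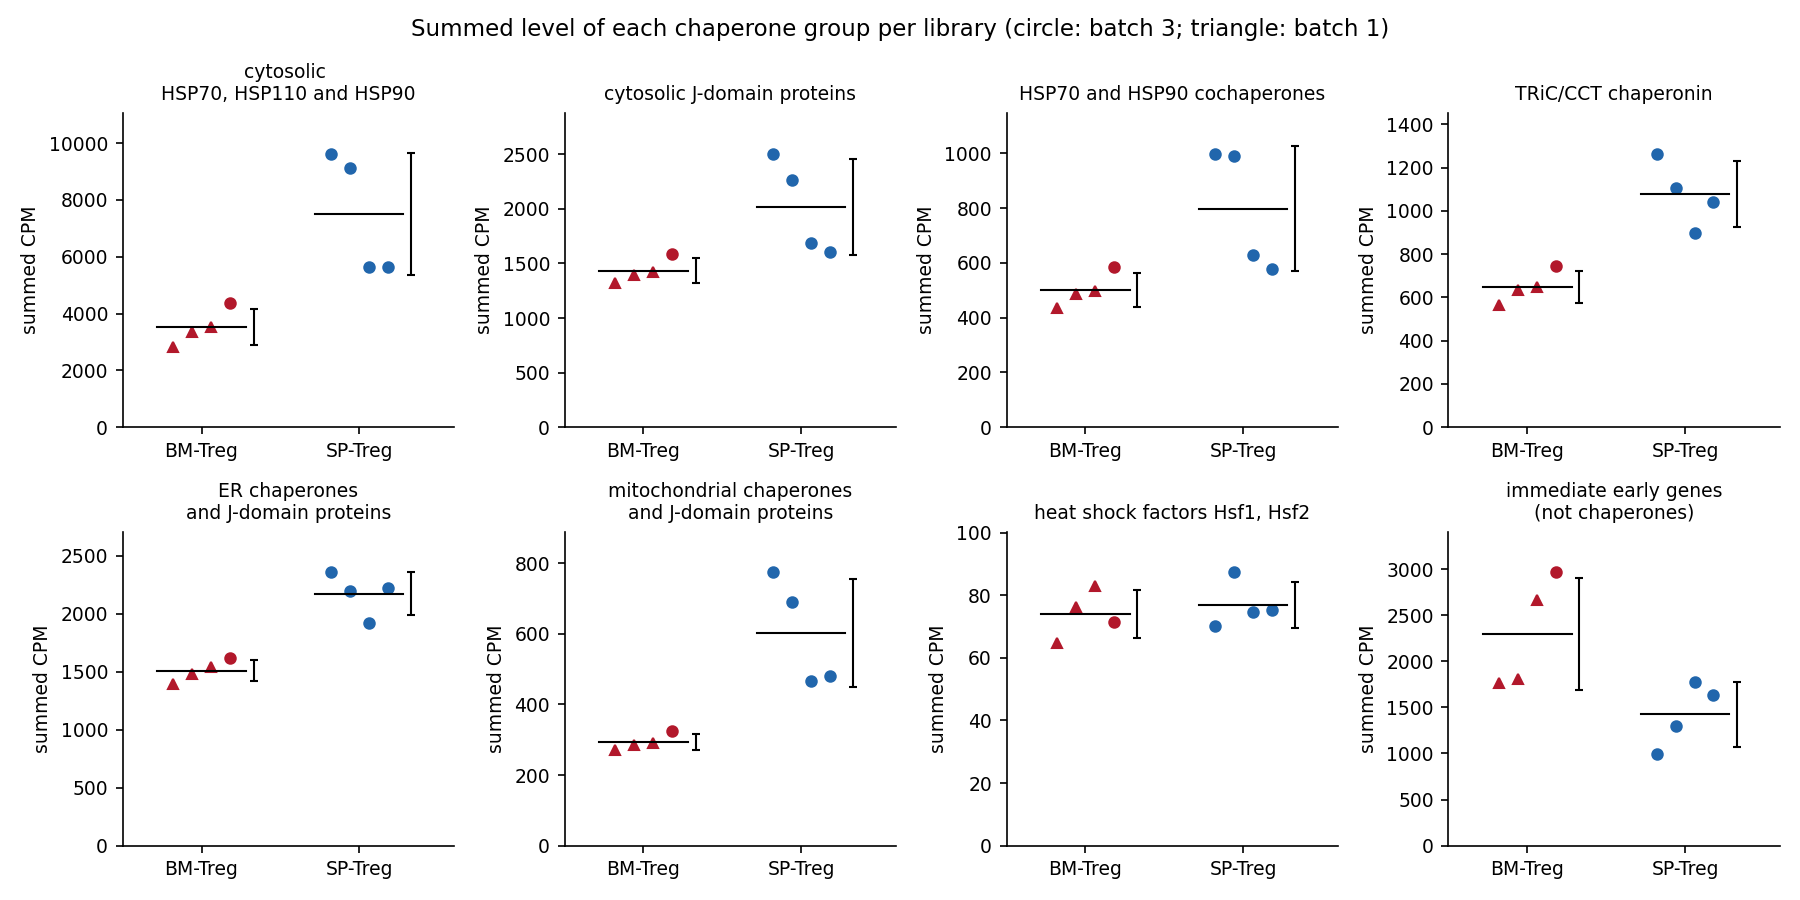
Summed level of each chaperone group, of both heat shock factors, and of 11 immediate early genes, in CPM (axis from 0), for each library of BM-Treg (red) and SP-Treg (blue); lines are means of 4 libraries and bars are SDs. In every chaperone group plotted but the cochaperones (BM-Treg replicate 4 at 585 CPM, SP-Treg replicate 4 at 576 CPM) the BM-Treg libraries lie below all SP-Treg libraries, while the heat shock factors overlap.

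Of the 13 cytosolic HSP70, HSP110 and HSP90 genes tested, 5 were called lower in BM-Treg and none higher (38.5%, against 8.75% of all genes). Their median log2 fold change was -0.85. Hspa8, on chromosome 9, encodes the constitutive HSP70 (HSC70) and had the highest level per transcript length of all members, at 1020 ± 151 FPKM in BM-Treg, against 1828 ± 358 FPKM in SP-Treg (SD, n = 4). Its counts were 1191, 1518, 1537 and 1832 CPM in the BM-Treg libraries and 3153, 3043, 2257 and 2498 CPM in those of SP-Treg. Each BM-Treg library was below each SP-Treg library, and the log2 fold change was -0.85 ± 0.15 (SE, edgeR adjusted p = 0.00271).

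The cytosolic HSP90 genes moved the same way. Hsp90ab1, the constitutive HSP90 beta, was second in level per length, at 563 ± 106 FPKM in BM-Treg, against 1136 ± 383 FPKM in SP-Treg. It had 881, 1016, 1149 and 1507 CPM in the BM-Treg libraries and 3234, 3133, 1802 and 1838 CPM in those of SP-Treg, which gave a log2 fold change of -1.14 ± 0.23 (edgeR adjusted p = 0.0149). The BM-Treg library nearest to the spleen was replicate 4, and within batch 3 alone the difference was -0.67. Hsp90aa1, the inducible HSP90 alpha, had 233, 268, 274 and 333 CPM in the BM-Treg libraries and 1018, 1019, 600 and 496 CPM in those of SP-Treg. Its log2 fold change was -1.50 ± 0.24 (edgeR adjusted p = 0.00485), the largest among called members, and -1.16 within batch 3.

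The HSP110 proteins, which act as nucleotide exchange factors for HSP70, were also called lower in 2 of 3 cases. Hspa4 had a log2 fold change of -0.55 ± 0.11 and Hspa4l of -1.04 ± 0.25 (edgeR adjusted p = 0.00797 and 0.0358). Hsph1 had the largest difference of any member tested but was not called. Its levels were 158, 174, 172 and 296 CPM in the BM-Treg libraries and 1442, 1264, 502 and 316 CPM in those of SP-Treg. The libraries did not overlap, but the SP-Treg libraries spread from 316 to 1442 CPM, and the log2 fold change of -2.14 ± 0.55 had an edgeR adjusted p of 0.0670.

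The stress-inducible HSP70 genes Hspa1a and Hspa1b, which are near-identical neighbours on chromosome 17, were low in both tissues. Since reads cannot be split reliably between them, their sum is given. It was 1.57, 6.17, 14.3 and 4.18 CPM in the BM-Treg libraries and 31.5, 25.1, 5.01 and 3.42 CPM in those of SP-Treg. SP-Treg replicates 1 and 2 were high and the other 2 spleen libraries lay within the range of the bone marrow, and neither gene was called (edgeR adjusted p = 0.537 and 0.492).

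Of the 10 HSP70 and HSP90 cochaperones tested, 2 were called lower in BM-Treg and 1 higher (30%, against 8.75% of all genes). Their median log2 fold change was -0.38. Stip1 (HOP), which hands proteins from HSP70 to HSP90, had 82.5, 82.3, 90.9 and 136 CPM in the BM-Treg libraries and 324, 342, 183 and 147 CPM in those of SP-Treg. Chordc1, another HSP90 cochaperone, had 74.7, 76.4, 75.6 and 104 CPM in the BM-Treg libraries and 247, 231, 143 and 115 CPM in those of SP-Treg. In both genes 3 BM-Treg libraries lay close together, replicate 4 was above them, and SP-Treg replicates 3 and 4 were nearest to it. The log2 fold changes were -1.35 ± 0.31 and -1.16 ± 0.25 (edgeR adjusted p = 0.0366 and 0.0202). Ahsa1, which activates the HSP90 ATPase, had a log2 fold change of -1.03 ± 0.28 and missed the threshold (edgeR adjusted p = 0.0585).

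Among the BAG proteins, 1 was called. Bag6, which guards hydrophobic proteins on their way to membranes or to degradation, had 120, 128, 129 and 123 CPM in the BM-Treg libraries and 94.0, 105, 93.8 and 103 CPM in those of SP-Treg. It was called higher in BM-Treg, by 0.34 ± 0.09 on the log2 scale (edgeR adjusted p = 0.0337). Bag1 and Bag3, both nucleotide exchange factors, were not called, at -0.06 ± 0.15 and -0.52 ± 0.38. Bag1 took the opposite sign, 0.30, within batch 3.

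Of the 21 J-domain proteins of the cytosol tested, 2 were called lower in BM-Treg and 1 higher (14.3%, against 8.75% of all genes). Their median log2 fold change was -0.06. Dnaja1, a general partner of HSP70, had 392, 436, 432 and 580 CPM in the BM-Treg libraries and 1261, 1176, 681 and 574 CPM in those of SP-Treg. BM-Treg replicate 4 and SP-Treg replicate 4 overlapped, and the log2 fold change of -1.01 ± 0.26 was just past the threshold (edgeR adjusted p = 0.0440; exact permutation p = 0.0571). Dnajb1, the partner of HSP70 that is induced by heat, was not called. It had 82.8, 106, 122 and 132 CPM in the BM-Treg libraries and 224, 174, 115 and 115 CPM in those of SP-Treg, so that only SP-Treg replicates 1 and 2 stood above the bone marrow.

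The transcripts listed for Dnaja1 differed in their shares. The protein-coding transcript with the most counts took 25.1% ± 7.51 of the gene's expected counts in BM-Treg and 51.8% ± 9.27 in SP-Treg (SD, n = 4), without overlap. The transcript had 87.3, 85.9, 95.3 and 210 CPM in the BM-Treg libraries and 783, 672, 303 and 250 CPM in those of SP-Treg. A transcript annotated (GENCODE M21) without a reading frame took 47.8% ± 8.63 and 21.9% ± 8.47, and its level was 215 ± 19.5 CPM in the BM-Treg libraries and 181 ± 12.4 CPM in those of SP-Treg. The gene's difference was thus carried mainly by other transcripts than this one. Shares of overlapping transcripts are estimates, and they were not tested.

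Dnajc2, which acts at the ribosome, was called lower with a log2 fold change of -0.32 ± 0.09, and Dnajb13, known from the axonemes of sperm and cilia, was called higher with 0.53 ± 0.16 (edgeR adjusted p = 0.0482 for both). Dnajb13 was low, at 17.0 ± 1.09 CPM in the BM-Treg libraries and 11.8 ± 1.97 CPM in those of SP-Treg. Of its counts, 73.5% ± 14.5 in BM-Treg and 80.8% ± 6.22 in SP-Treg lay on a transcript annotated without a reading frame, and its protein-coding transcript was at 0 in all 4 SP-Treg libraries. Dnajb6, which keeps proteins from aggregating, was lower in all 4 BM-Treg libraries but not called, at -0.25 ± 0.09 (edgeR adjusted p = 0.0994).

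**Figure D2:**
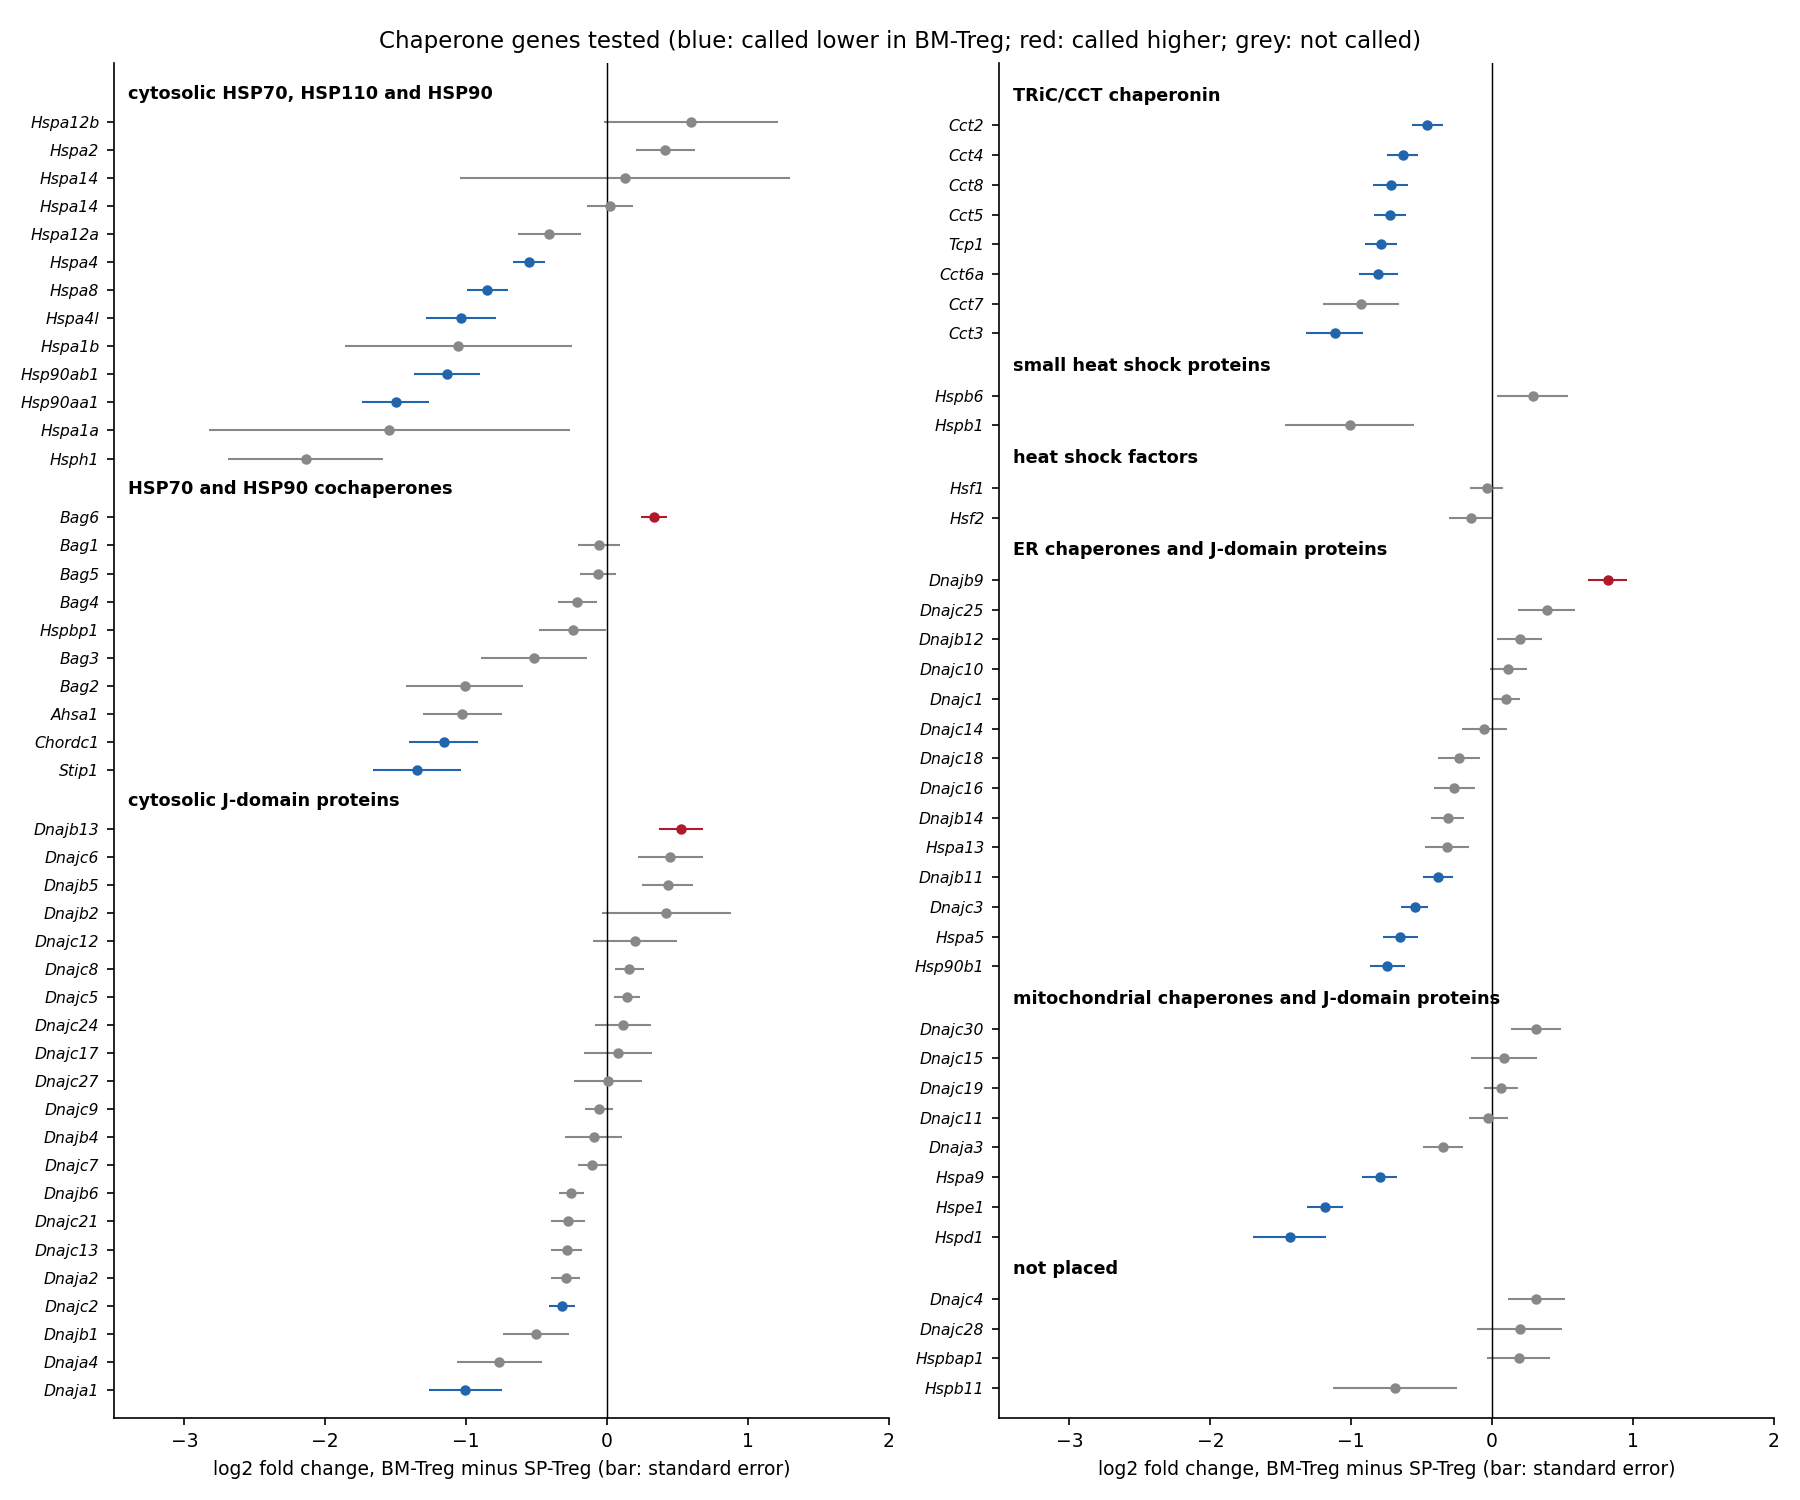
Log2 fold change of each of the 82 members tested, BM-Treg minus SP-Treg, with its standard error, by group; blue and red mark members called lower and higher in BM-Treg by edgeR's quasi-likelihood test. All 8 TRiC/CCT genes lie below 0, whereas the cytosolic J-domain proteins lie on both sides of it, 11 below and 10 above.

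TRiC/CCT is a ring built of different subunits. All 8 subunit genes tested, Tcp1, Cct2, Cct3, Cct4, Cct5, Cct6a, Cct7 and Cct8, had lower means in BM-Treg. Of them, 7 were called lower (87.5%, against 8.75% of all genes called in either direction). The called log2 fold changes ran from -0.46 for Cct2 to -1.12 for Cct3. Cct6b and Cct8l1, listed beside them, had 23 and 4 counts in total and were not tested.

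Tcp1, the first subunit of the ring, had 129, 148, 161 and 136 CPM in the BM-Treg libraries and 293, 247, 215 and 238 CPM in those of SP-Treg. The tissues did not overlap, and the log2 fold change of -0.79 ± 0.11 (edgeR adjusted p = 0.00105) was -0.85 within batch 3. Cct3 had 26.3, 32.0, 32.3 and 47.2 CPM in the BM-Treg libraries and 93.2, 83.8, 52.3 and 68.5 CPM in those of SP-Treg. BM-Treg replicate 4 came close to SP-Treg replicate 3 without overlap, and the log2 fold change of Cct3 was -1.12 ± 0.20 (edgeR adjusted p = 0.00627) and -0.62 within batch 3. A Cct3 transcript with a retained intron took 48.9% ± 4.18 of its expected counts in BM-Treg and 55.9% ± 3.12 in SP-Treg (SD, n = 4). That transcript was at 17.1 ± 6.06 and 42.0 ± 12.1 CPM, so much of the gene's difference lay on it. These shares were not tested.

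The other called subunits, Cct4, Cct5, Cct6a and Cct8, had log2 fold changes between -0.63 and -0.81. Cct7 was the exception. It had 45.2, 70.7, 69.7 and 103 CPM in the BM-Treg libraries and 189, 140, 95.6 and 123 CPM in those of SP-Treg, so that BM-Treg replicate 4 lay above SP-Treg replicate 3. Its log2 fold change of -0.93 ± 0.27 was not called (edgeR adjusted p = 0.0712). The only transcript listed for Cct6a is annotated without a reading frame. Tcp1 and Cct8 each overlap a gene on the other strand (Mrpl18 and Usp16) that had at least 10% of their counts, and reads of such pairs cannot be assigned where strand is not stated to be used.

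Of the 7 small heat shock protein genes listed, only Hspb1 and Hspb6 were tested, and neither was called by edgeR, DESeq2, limma-voom or limma on FPKM (1 had an unadjusted edgeR p under 0.05). Hspb1 (HSP27 in human cells) was at 0.931, 1.07, 0.991 and 3.23 CPM in the BM-Treg libraries and 3.23, 4.19, 3.18 and 1.61 CPM in those of SP-Treg. BM-Treg replicate 4 was at the level of the spleen, and the log2 fold change of -1.01 ± 0.46 became 0.16 within batch 3.

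Levels of the heat shock factors overlapped between the tissues. Hsf1, the main activator of heat shock genes, had 53.3, 65.3, 73.3 and 61.0 CPM in the BM-Treg libraries and 60.1, 74.5, 61.7 and 63.7 CPM in those of SP-Treg, with a log2 fold change of -0.04 ± 0.12. Hsf2 had a log2 fold change of -0.15 ± 0.16. Neither was called by any of the 4 tests, and neither had an unadjusted edgeR p under 0.05 (0 of 2). The sign of Hsf1 turned with FPKM in place of counts.

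In the ER, 4 of the 14 genes tested were called lower in BM-Treg and 1 higher (35.7%, against 8.75% of all genes). Their median log2 fold change was -0.25. Hspa5 (BiP), the HSP70 of the ER, had 340, 358, 429 and 410 CPM in the BM-Treg libraries and 594, 545, 541 and 733 CPM in those of SP-Treg. Hsp90b1 (GRP94), the HSP90 of the ER that folds integrins and Toll-like receptors, had 480, 554, 537 and 642 CPM in the BM-Treg libraries and 1053, 1002, 781 and 870 CPM in those of SP-Treg. Neither gene had overlapping libraries, and the log2 fold changes were -0.65 ± 0.12 and -0.74 ± 0.12 (edgeR adjusted p = 0.00441 and 0.00221). The J-domain proteins Dnajc3 (p58IPK), an inhibitor of the stress kinase PERK that also works in the ER lumen, and Dnajb11 (ERdj3), which brings proteins to BiP, had log2 fold changes of -0.55 ± 0.10 and -0.39 ± 0.11 (edgeR adjusted p = 0.00284 and 0.0375). Libraries of Dnajb11 overlapped slightly, with BM-Treg replicate 4 at 108 CPM and SP-Treg replicate 3 at 107 CPM.

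Dnajb9 (ERdj4), a J-domain protein that feeds ER proteins to degradation and restrains the sensor IRE1, went the other way. It had 33.4, 29.7, 41.7 and 35.8 CPM in the BM-Treg libraries and 18.8, 17.4, 22.6 and 20.9 CPM in those of SP-Treg. The lowest bone marrow library was above the highest of the spleen, with a log2 fold change of 0.82 ± 0.14 (edgeR adjusted p = 0.00234), which within batch 3 was 0.85. Dnajb9 was the only called member of the ER group with that direction. The other J-domain proteins of this group had log2 fold changes between -0.31 and 0.39 and were not called.

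Promoters of called ER genes are shown, picked after the calls were known. Hspa5, Hsp90b1 and Dnajc3, called lower, held a motif, the ER stress response element, and Dnajb9, called higher, did not. Dnajb11, not shown, was called lower without it, so the motif did not separate the called genes by direction. Sequences are from RefSeq (GRCm38.p6), run 5′ to 3′ on the strand of the gene, and end at the base before its start. They lie at chr2:34771840-34772089 (Hspa5, plus strand), chr10:86705445-86705694 (Hsp90b1, minus strand), chr14:118937682-118937931 (Dnajc3, plus strand) and chr12:44210069-44210318 (Dnajb9, minus strand). In the first 3, capitals mark the ER stress response element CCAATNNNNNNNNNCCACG on either strand, which includes a CCAAT box; in Dnajb9 they mark the letters CCAAT and CACGTG.
Hspa5: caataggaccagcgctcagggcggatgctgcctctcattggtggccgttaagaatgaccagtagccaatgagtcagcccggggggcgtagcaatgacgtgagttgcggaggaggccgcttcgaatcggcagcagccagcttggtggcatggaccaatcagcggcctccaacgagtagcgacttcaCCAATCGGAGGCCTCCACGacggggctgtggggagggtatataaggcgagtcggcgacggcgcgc
Hsp90b1: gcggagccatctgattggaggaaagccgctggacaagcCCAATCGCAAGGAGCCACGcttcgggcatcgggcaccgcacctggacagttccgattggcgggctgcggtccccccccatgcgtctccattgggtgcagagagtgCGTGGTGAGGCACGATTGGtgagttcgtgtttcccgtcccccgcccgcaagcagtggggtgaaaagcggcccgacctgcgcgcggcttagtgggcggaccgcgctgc
Dnajc3: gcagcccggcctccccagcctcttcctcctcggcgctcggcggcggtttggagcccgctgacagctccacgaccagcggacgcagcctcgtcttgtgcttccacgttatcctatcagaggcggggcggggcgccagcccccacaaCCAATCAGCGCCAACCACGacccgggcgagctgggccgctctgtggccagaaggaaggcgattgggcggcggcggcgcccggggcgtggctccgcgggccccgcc
Dnajb9: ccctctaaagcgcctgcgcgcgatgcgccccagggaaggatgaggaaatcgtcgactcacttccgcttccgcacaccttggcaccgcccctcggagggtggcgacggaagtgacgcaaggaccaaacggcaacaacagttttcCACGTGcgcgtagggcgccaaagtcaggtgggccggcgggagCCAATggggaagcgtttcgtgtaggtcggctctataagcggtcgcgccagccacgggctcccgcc

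Promoter windows (250 bases before to 50 after the start) were found for 78 of the 97 symbols. The ER stress response element was in 3 of these 78 (Hspa5, Hsp90b1 and Dnajc3; 3.85%), against 0.137% of all 27025 genes with a window. All 3 were called lower in BM-Treg, and Hsp90b1 held it at 2 places. Dnajb11, also called lower, did not hold these letters. The letters CCAAT alone, which the element contains, were in 41.0% of members and 41.1% of all genes, and CACGTG was in 10.3% and 8.09%. These matches describe the letters and are not evidence that a factor was bound.

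**Figure D3:**
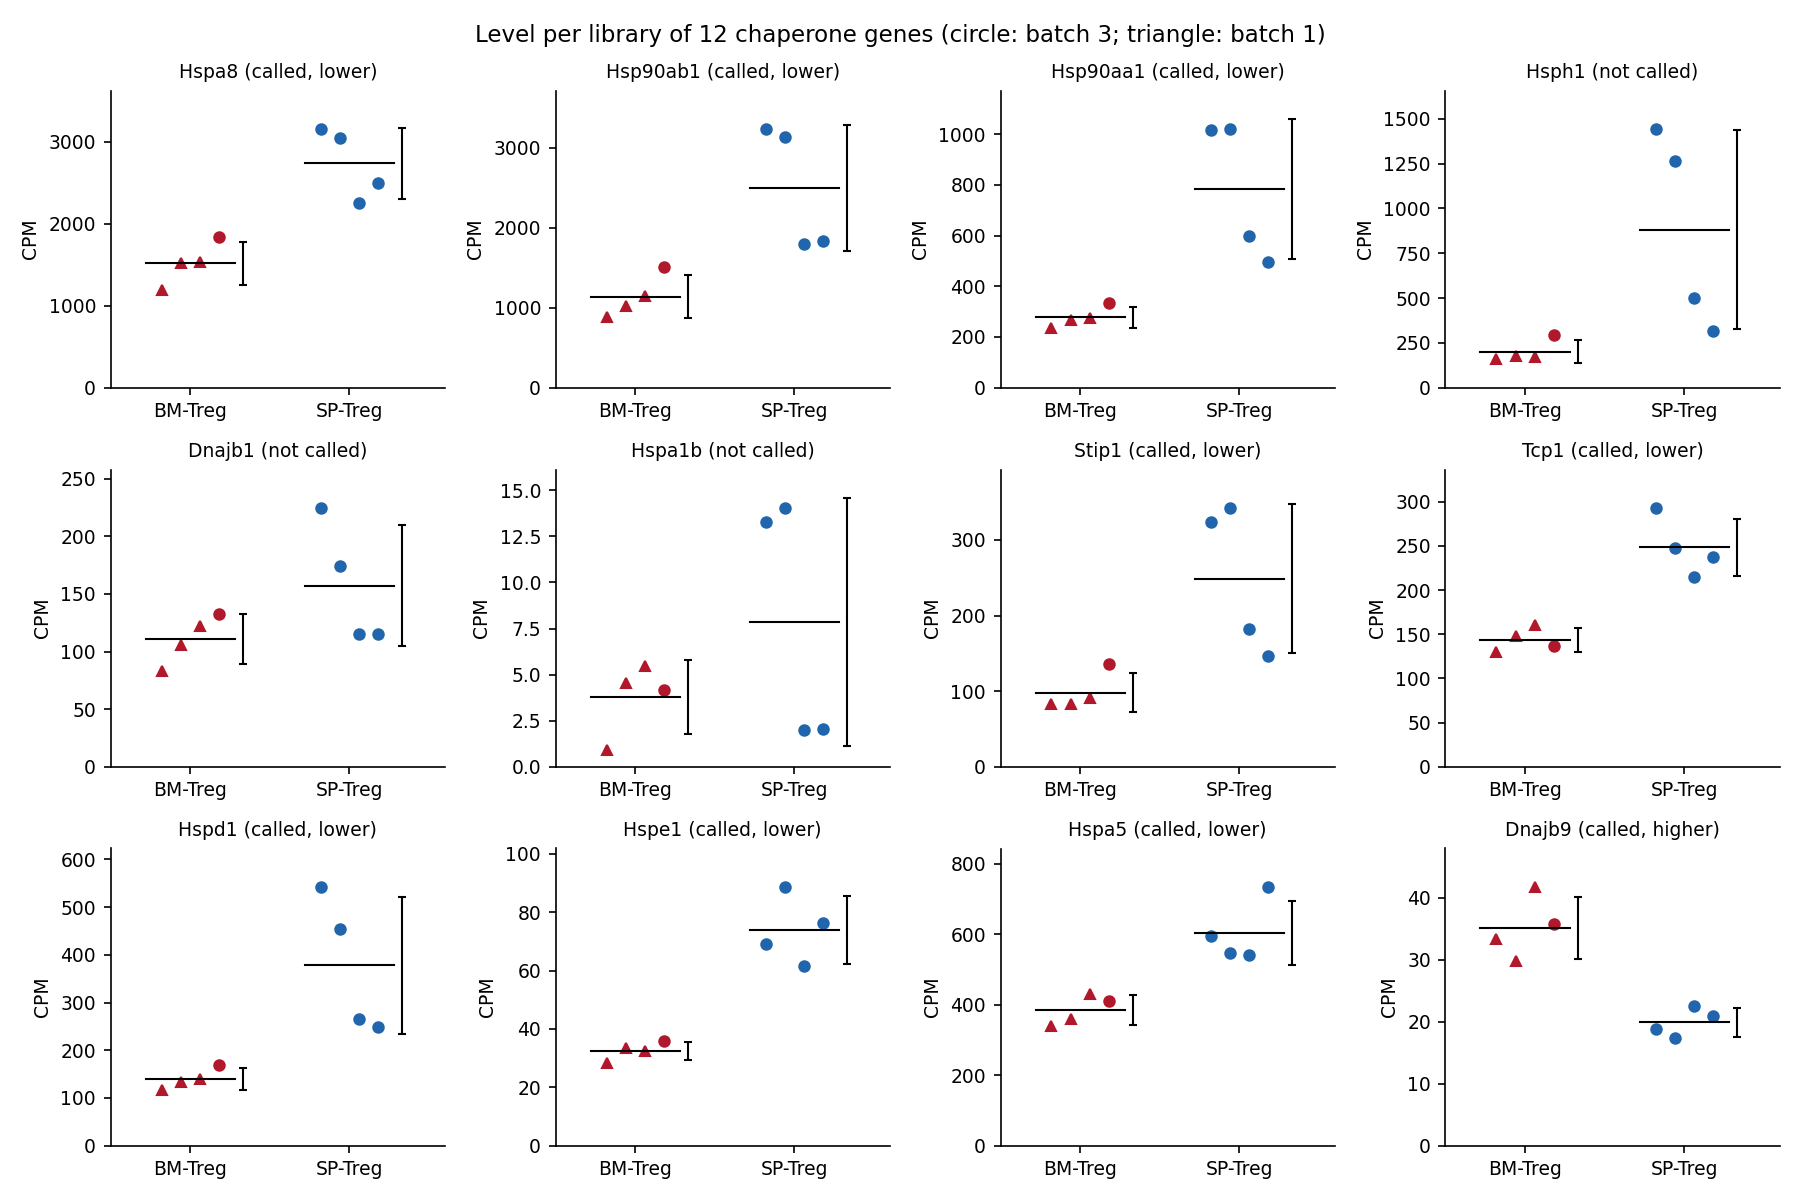
Level in CPM (from 0) of 12 named chaperone genes in each BM-Treg library (red) and SP-Treg library (blue), with triangles for batch 1 and circles for batch 3; lines are means of 4 libraries and bars are SDs. Hspe1, Hspa5 and Tcp1 separate the tissues without overlap, though their spleen libraries spread too. Hsph1, Stip1 and Hspd1 have their 2 highest libraries far above the other spleen libraries, and Dnajb9 is higher in BM-Treg.

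In the mitochondria, all 3 members that are chaperones of the matrix (Hspd1, Hspe1 and Hspa9) were called lower in BM-Treg by edgeR. It called 0 of 5 J-domain proteins of the mitochondria (1 had an unadjusted p under 0.05, and DESeq2, limma-voom and limma on FPKM called 0). Together, 3 of 8 were called by edgeR (37.5%, against 8.75% of all genes). Hspd1 (HSP60), which forms the mitochondrial folding chamber, had 116, 134, 140 and 170 CPM in the BM-Treg libraries and 542, 455, 266 and 248 CPM in those of SP-Treg. Hspe1 (HSP10), the lid of that chamber, had 28.2, 33.6, 32.5 and 35.7 CPM in the BM-Treg libraries and 68.9, 88.5, 61.5 and 76.4 CPM in those of SP-Treg. The tissues did not overlap for either gene, but the order of the spleen libraries differed: SP-Treg replicate 1 was the highest for Hspd1, and replicate 2 for Hspe1. Their log2 fold changes were -1.44 ± 0.26 and -1.18 ± 0.13 (edgeR adjusted p = 0.0109 and 0.000185), the latter being the smallest adjusted p among the members. Hspa9 (mortalin), the mitochondrial HSP70, had a log2 fold change of -0.80 ± 0.12 (edgeR adjusted p = 0.00162).

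Hspd1 and Hspe1 are neighbours on chromosome 1 and are read in opposite directions, so that a single stretch serves as promoter of both. It is shown because it holds a heat shock element, and because both genes were lower in BM-Treg. The sequence covers the 215 bases between their RefSeq starts, chr1:55087933-55088147 of GRCm38.p6, on the minus strand, so that it ends at the base before Hspd1. Capitals mark the heat shock element GAANNTTCNNGAA, searched on either strand, whose overlapping matches begin 144 and 139 bases before the start of Hspd1.
Hspd1 and Hspe1: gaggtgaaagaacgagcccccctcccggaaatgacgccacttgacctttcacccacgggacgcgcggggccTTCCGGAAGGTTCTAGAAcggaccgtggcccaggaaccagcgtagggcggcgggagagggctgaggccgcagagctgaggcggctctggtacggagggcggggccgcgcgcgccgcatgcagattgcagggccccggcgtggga

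The heat shock element was in the windows of 5 of the 78 members (6.41%), against 0.662% of all genes. These were Hspd1 and Hspe1, which share the same site, Hsph1 and Chordc1, whose matches lie at or after the start, and Dnajb6. All 5 had lower means in BM-Treg, and 3 of them (Hspd1, Hspe1 and Chordc1) were called. The listed genes of Hspd1 and Hspe1 overlap by 112 bases, where their reads cannot be told apart without strand. A transcript of Hspe1 with a retained intron took 7.52% ± 1.98 of its expected counts in BM-Treg and 2.35% ± 0.847 in SP-Treg. It was at 2.40 ± 0.503 and 1.71 ± 0.555 CPM, a higher mean in BM-Treg. The protein-coding transcript was at 30.1 ± 3.49 and 72.1 ± 11.5 CPM, so the gene's lower level in BM-Treg lay on that transcript.

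The SP-Treg libraries were not alike. SP-Treg replicates 1 and 2 were both above replicates 3 and 4 in 17 of the 23 members called lower in BM-Treg, and in 38 of all 82 members tested (46.3%), against 22.3% of all genes tested. In Hsph1, Hsp90ab1, Hsp90aa1, Stip1 and Chordc1 the step between these pairs was as wide as or wider than that between SP-Treg replicate 4 and BM-Treg replicate 4. It was absent in Hspe1, Hspa5, Dnajc2 and Cct2. This order was noticed after the values were seen and was not tested. In the bone marrow, replicate 4, the library of batch 3, was the highest in 16 of the 23. The share of all genes with that order was not counted, so this is not a result about chaperones.

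Immediate early genes, which are induced within minutes of activation or of handling cells, had a higher mean sum in BM-Treg, with overlap between the tissues. The 11 genes listed summed to 1760, 1808, 2670 and 2963 CPM in the BM-Treg libraries and 995, 1293, 1778 and 1632 CPM in those of SP-Treg. In the spleen, replicates 1 and 2, which had the most chaperone RNA, had the lowest sums, whereas in the bone marrow replicate 4 had the highest of both. Fosb, Dusp1 and Junb were called higher in BM-Treg and Egr1 was called lower. The part of activation or handling in the chaperone levels was not tested. The 10 proliferation markers summed to between 999 and 2028 CPM in BM-Treg and between 1472 and 1832 CPM in SP-Treg, and 3 of them were called lower in BM-Treg.

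**Figure D4:**
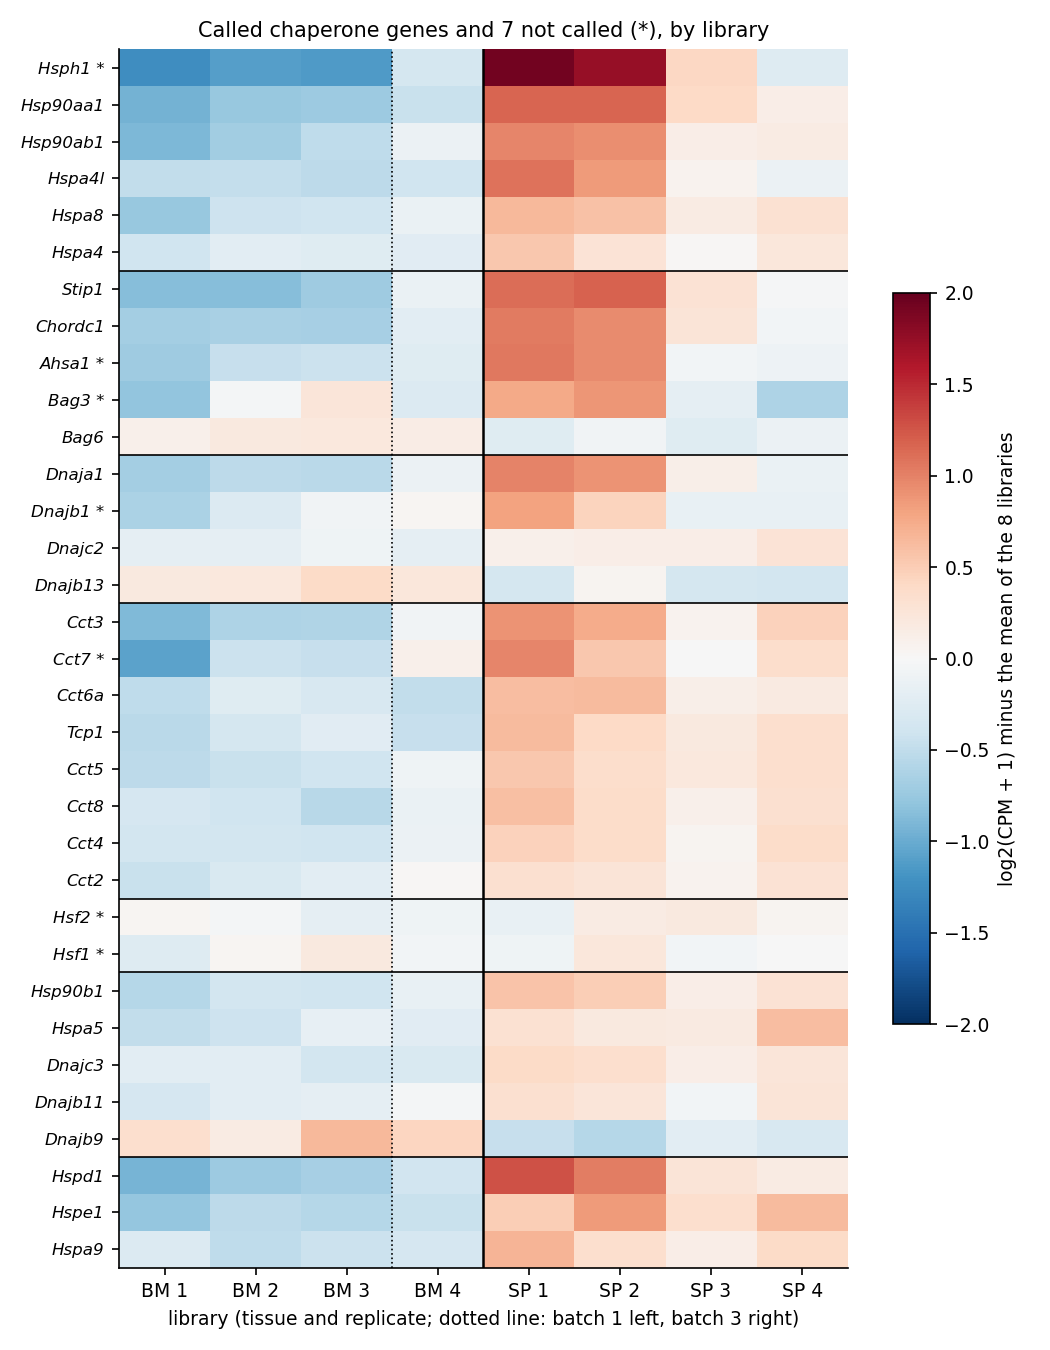
Level of the 26 called members and of 7 that were not called (asterisk) in each library, as log2(CPM + 1) minus the mean of the 8 libraries (blue below, red above), with lines between the groups. Apart from Bag6, Dnajb13 and Dnajb9, the called members are lower in the BM-Treg columns, and SP-Treg replicates 1 and 2 are the darkest red for Hsph1, Hsp90aa1, Stip1 and Hspd1.

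Genes of the same pathways outside these families were compared by lists, which were also chosen with earlier results of these data known. Of 18 cytosolic genes tested, 3 were called lower in BM-Treg and none higher (16.7%, against 8.75% of all genes). Their median log2 fold change was -0.18. The 3 were St13 (HIP), which steadies HSP70 bound to its client, and the HSP90-associated isomerases Fkbp4 and Ppid. St13 had 46.8, 60.9, 62.2 and 75.7 CPM in the BM-Treg libraries and 194, 168, 118 and 122 CPM in those of SP-Treg, which gave a log2 fold change of -1.30 ± 0.18 (edgeR adjusted p = 0.00163). The libraries stood in the same order as for Hsp90ab1.

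Of 23 other genes of ER folding and the unfolded protein response, 6 were called lower in BM-Treg and 3 higher (39.1%, against 8.75% of all genes). The lower ones work in folding: the lectin chaperones Calr and Canx, the disulfide isomerases P4hb and Pdia6, and the ER proteins Sdf2l1 and Creld2, with log2 fold changes from -0.50 to -0.89. The higher ones were Herpud1, which acts in the degradation of ER proteins, at 0.65 ± 0.13, the stress transcription factor Atf4 at 0.52 ± 0.14, and the sensor Ern1 (IRE1) at 0.49 ± 0.14 (edgeR adjusted p = 0.00612, 0.0261 and 0.0446). Their libraries did not overlap, and neither did those of Dnajb9. Other genes of these roles were not called. Of ER degradation, Sel1l, Syvn1 and Edem1 were at 0.03, 0.14 and -0.08. Of the stress response, Xbp1, Atf6, Ddit3 and Eif2ak3 were at -0.13, 0.13, -0.02 and 0.24. Of folding, Pdia3, Pdia4 and Hyou1 were at -0.34, -0.46 and -0.17. With the batch term, 0 of the 23 were called, against 1.93% of all genes. Of 12 mitochondrial genes tested (the HSP90 of the matrix, proteases, import and quality control), edgeR called 0 (2 had an unadjusted p under 0.05), and DESeq2, limma-voom and limma on FPKM called 0. Their median log2 fold change was 0.02. Among them was Trap1, that HSP90, at -0.33 ± 0.12 (edgeR adjusted p = 0.105).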

How the data were processed

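RNA of FoxP3+ cells sorted by flow cytometry from bone marrow and spleen (15 ng per library) was amplified by single primer isothermal amplification, which is not stated to mark strand, and sequenced from 1 end (80 nt) without molecular identifiers. The submitters' processing notes name cutadapt 1.9, STAR 2.5.2a, RSEM 1.2.30 and GRCm38; the annotation release and the strand setting are not given in the sources used here. The authors deposited expected counts (estimated reads per gene and transcript, which need not be whole) without normalization, and FPKM values (counts per transcript length and depth). All columns matched a library by name. All 8 libraries were used.

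Expected counts were rounded, filtered by edgeR's default rule on the groups, scaled by TMM and put through the quasi-likelihood test of edgeR (robust, no covariate) with Benjamini-Hochberg adjustment over all genes tested. CPM uses TMM library sizes. SDs are over 4 libraries, and errors of log2 fold changes are standard errors. FPKM values served to compare levels between genes. The versions were edgeR 4.0.16, DESeq2 1.42.0 and limma 3.58.1 under R 4.3.3. The test was tried on simulated data first. Members were matched by symbol alone, but the families and the gene lists were chosen with earlier results of these data known. Genes named are all called members and those of a fixed list; other members are named only where a count needs them. Called genes of the pathway lists are named too, with some that were not called. Alternatives were DESeq2, limma-voom, limma on log2(FPKM + 1) and log2(FPKM + 0.1), DESeq2 size factors, 2 other filters, batch as a term, a block for the replicate number, batch 3 alone, fits without each library, and, chosen after seeing the data, a fit without mitochondrial genes and Lars2 and 1 without BM-Treg replicates 1 and 2. Sequences are from the RefSeq promoter table (GRCm38.p6). Gene coordinates are those of the deposited tables.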

Additional observations from a re-analysis of the deposited data

Results flagged for a closer look

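Of the 98 sets of 4 libraries examined (levels of named members and of group sums in each tissue), 7 held 1 library far from the other 3 by Dixon's test, where chance gives about 1 in 20. In 5 of these the library was BM-Treg replicate 4, the only bone marrow library of batch 3, and it was the highest: Hsph1 at 296 CPM (the others 158 to 174), Chordc1 at 104 CPM (74.7 to 76.4), Stip1 at 136 CPM (82.3 to 90.9), Cct4 at 87.2 CPM (71.3 to 72.9) and Hspb1 at 3.23 CPM (0.931 to 1.07). Dnajc2 was at 70.2 CPM in BM-Treg replicate 3 (the others 65.6 to 66.1), and Dnajb13 at 14.7 CPM in SP-Treg replicate 2 (the others 10.7 to 10.9). The cause was not tested.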

How the results depend on the processing

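All 26 called members kept their direction under each of the 19 alternatives with a test. The alternatives reuse the libraries that gave the calls, so the kept directions are not separate support. With the batch term, 2 of 82 members tested were called, 2 lower and 0 higher, against 1.93% of all genes. Without BM-Treg replicates 1 and 2, chosen after seeing the data, 5 of 83 were called, 4 lower and 1 higher, against 2.24%. With each library left out in turn, 16 to 25 were called, 15 to 24 lower and 1 to 2 higher, against 5.07% to 7.63% of all genes. The low values were 17, 17 and 16 without BM-Treg replicates 1, 2 and 3, and 16 of the 26 were called in all 8 such fits. The share of all genes called moved with the setting too, and is given in brackets. The number of members called was 31 by DESeq2 (12.7%), 25 with its size factors in edgeR (8.64%) and 24 by limma-voom (9.09%). It was 20 on either FPKM scale, 16 lower and 4 higher (5.71% with 1 added and 5.43% with 0.1 added). It was 18 without a filter (5.74%), 26 with at least 10 counts in every library (10.4%) and 25 without mitochondrial genes and Lars2 (8.93%). Of all genes called, 42.6% were higher in BM-Treg on counts and 63.0% on log2(FPKM + 1). Dnajc2 was called in 0 of the 8 fits with a library left out (largest edgeR adjusted p 0.139), Dnajb13 in 1, Bag6 and Dnajb11 in 2 and Stip1, Dnaja1 and Hspa4l in 3. Hsph1 was called in 2 of 19 alternatives (adjusted p 0.00075 to 0.434).

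Among the members named, signs that turned were all of members not called. Over all members tested, 55 of 82 were below 0 on counts and 49 on both FPKM scales. Bag1 was at 0.29 with the batch term, at 0.12 without BM-Treg replicates 1 and 2, and ranged from -0.19 to 0.083 with a library left out (above 0 without BM-Treg replicate 1 or SP-Treg replicate 1). Hsf1 was at 0.023 on both FPKM scales, at 0.080 without BM-Treg replicates 1 and 2, and ranged from -0.12 to 0.063 with a library left out (above 0 without BM-Treg replicate 1 or SP-Treg replicate 2). Hspb1 was at 0.091 with the batch term. Dnajc15 ranged from -0.045 (without SP-Treg replicate 1) to 0.39. The cause was not tested.

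Same-numbered libraries of both tissues did not deviate together (correlations from -0.141 to -0.00052, and 0 libraries correlated best with their own number). The labels do not say whether these libraries share an animal or a day. Such correlations cannot settle it, since most BM-Treg libraries are of another batch. The main test used no pairing. With the replicate block, 17 members were called, 16 lower and 1 higher, against 7.08% of all genes.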
